A study of Saccharomyces cerevisiae with 16 samples.

Results

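The yeast plasma membrane amino acid permeases followed here were 10 genes, taken by gene name: CAN1 (YEL063C), ALP1 (YNL270C), LYP1 (YNL268W), HIP1 (YGR191W), BAP2 (YBR068C), BAP3 (YDR046C), TAT1 (YBR069C), TAT2 (YOL020W), GNP1 (YDR508C) and AGP1 (YCL025C). All 10 were counted in every library, among 7126 features in the RNA files, 6696 in the footprint files at 1 h and 5647 in those at 8 h. The study removed eIF4E, which binds the cap of mRNAs and recruits the initiation machinery, and asked how mRNA abundance and ribosome occupancy changed. Cells of the haploid Saccharomyces cerevisiae strain BY4742 were given 500 µM of the auxin indole-3-acetic acid (IAA), or its solvent DMSO, for 1 h or 8 h in rich medium. In all 16 libraries, those with DMSO included, CDC33 (the gene of eIF4E) was fused to a degron, through which the plant protein osTIR1 directs the protein to the proteasome when auxin is present. RNA-seq, and ribosome profiling, which reads the stretches of mRNA that ribosomes protect (footprints), were each done on 2 libraries per treatment and time, which gives 8 groups of 2. The labels call the pairs biological replicates without saying that they were separate cultures, so the p-values measure only the spread between these libraries. No library of a strain without the degron was analysed here, so effects of IAA itself and of eIF4E loss cannot be told apart.

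These permeases belong to one family of proton-coupled carriers that sit in the plasma membrane and bring amino acids into the cell. CAN1 is the arginine permease and the route by which canavanine enters, ALP1 is its close relative, LYP1 takes up lysine and HIP1 histidine. BAP2 and BAP3 carry leucine, isoleucine and valine, TAT1 carries tyrosine and branched-chain amino acids, TAT2 is the high-affinity tryptophan permease, GNP1 is the glutamine permease and AGP1 is a permease of broad range. BY4742 lacks HIS3, LEU2, LYS2 and URA3, so its growth depends on the uptake of histidine, leucine and lysine. Transcription of AGP1, BAP2, BAP3, TAT1 and GNP1 is known to be raised by the SPS sensor (Ssy1, Ptr3 and Ssy5), which senses external amino acids and releases the factors Stp1 and Stp2 into the nucleus.

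RNA libraries held 10182227 to 50294053 counts over genes and footprint libraries 1766499 to 9985060, the shallowest being footprints of DMSO replicate 1 at 8 h. The 10 permeases together took 0.148 to 0.232% of RNA counts and 0.0922 to 0.142% of footprint counts. The strain markers fitted the labels: the deleted genes had no footprint and at most 37 RNA counts in any library, and the alpha-cell genes SAG1, MF(ALPHA)1 and STE3 had 3186 to 84148 RNA counts. The 5 a-cell markers (STE2, MFA1, MFA2, BAR1, AGA2) were low but summed to 19.4 to 23.9 CPM (counts scaled to a library total of 1000000) in RNA with IAA against 8.03 to 9.72 CPM with DMSO over both times. STE2 alone gave 542 of 729 and 872 of 1203 of these counts in the IAA libraries at 1 h. The markers did not move together at 1 h: log2 changes were 1.56 (STE2), 1.53 (AGA2), 1.14 (MFA1), -0.07 (MFA2) and -0.06 (BAR1). Their part in the permease values was not tested. CDC33 RNA had 5954 to 27691 counts per library and was lower by 0.39 ± 0.11 (log2 scale, SE) at 1 h and 0.55 ± 0.14 at 8 h with IAA, while the degron acts on the protein, so RNA does not check the depletion. Counts were scaled to library totals corrected by the TMM method, so every value is relative to the other genes of its library. In such bulk libraries fewer cells of a type and less RNA per cell cannot be told apart. Scaling to plain totals instead raised the genome-wide median log2 fold change by 0.22 (RNA at 1 h), 0.18 (footprints at 1 h) and 0.26 (footprints at 8 h).

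Several of the genes lie side by side. On the R64 assembly (the build named for the files), BAP2 occupies chromosome II, 373861 to 375690, and TAT1 follows at 376574 to 378433 on the same minus strand, 883 bases away. ALP1 (chromosome XIV, 135940 to 137661, minus strand) and LYP1 (138550 to 140385, plus strand) flank the small gene BSC4. CAN1 lies on chromosome V at 31694 to 33466, HIP1 on VII at 880420 to 882231, BAP3 and GNP1 on IV at 548762 to 550576 and 1466453 to 1468444, AGP1 on III at 76018 to 77919 and TAT2 on XV at 286172 to 287950. Each has a single coding exon of 1722 to 1992 bases. The antisense RNA TBRT (II, 376610 to 378633, plus strand) covers 98.1% of the TAT1 coding length, and the reference notes that its transcription represses BAP2 and TAT1. TBRT has no entry of its own in the count files and whether reads were counted by strand is not given in the sources used here. TAT1 RNA reads and TBRT reads therefore cannot be told apart. Of all 28-base windows in the footprint-counted part of each gene, 36 in ALP1 and 36 in LYP1 (2.2% and 2.06%), and 20 each in AGP1 and GNP1, occur elsewhere in the genome, and none in the other 6 genes.

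Short strings in the 500 bases before each start codon are shown because the most alike partners of CAN1 and BAP2, described further on, are amino acid biosynthesis genes. The core of the site of Gcn4, the activator of amino acid biosynthesis genes, is TGACTC. It was found on either strand before 4 of the 10 permeases and before 12.7% of the 6000 protein-coding genes with a full window. Capitals mark the core (GAGTCA where it lies on the other strand), each sequence is read along its gene's coding strand, and the coordinates are R64.

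CAN1 (chrV:33806-33829, minus): tttccgggtGAGTCAtacggcttt
BAP2 (chrII:375888-375911, minus): tactaggaaTGACTCttcagcgag
AGP1 (chrIII:78342-78365, minus): ggtctcatcGAGTCAtagataagc
HIP1 (chrVII:880365-880388, plus): atcgctatcTGACTCattagtaca

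HIP1 held a second copy farther upstream. The strings were chosen from likeness in these same data, so their shares are no separate support for it. The genes most like the other carriers of this core, HIP1 and AGP1, were IWR1 and VPS75, which are not amino acid biosynthesis genes. The string GATAAG, bound by GATA factors such as Gln3 and Gat1 that act on nitrogen-regulated genes, stood before CAN1 with 3 copies, AGP1 with 2 and ALP1 with 1, and before 22.8% of all these genes. The Leu3 string (CCGG, any 2 bases, CCGG), bound by the regulator of leucine biosynthesis, stood before BAP2 alone among the permeases (chrII:376058-376085, minus; tttgtgggaCCGGAACCGGcatccacat) and before 0.267% of all genes. A matched string is a description and not a bound site.

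Per length, BAP2 or TAT1 had the highest RNA level of the 10 in every group and ALP1 the lowest. RNA levels, in CPM per kilobase of coding sequence, in IAA cells at 1 h ran from 216 ± 12.5 for BAP2 (SD, n = 2) through 173 ± 0.947 for TAT1, 150 ± 4.29 for HIP1, 147 ± 15.6 for GNP1 and 128 ± 6.78 for LYP1 to 18.7 ± 1.7 for AGP1 and 6.77 ± 1.33 for ALP1. In DMSO cells at 1 h TAT1 led with 246 ± 16.8, before GNP1 with 196 ± 17.1 and BAP2 with 192 ± 15.6, and AGP1 and ALP1 were again last with 24 ± 6.57 and 1.92 ± 0.0229. With DMSO the neighbouring pairs GNP1 and BAP2, LYP1 and HIP1, and TAT2 and BAP3 overlapped between replicates, so their order is not resolved. BAP2 was also first at 8 h under both treatments, with RNA levels of 225 ± 5.44 with IAA and 183 ± 5.72 with DMSO. CAN1 came second at 8 h with IAA (108 ± 9.58 CPM per kilobase, overlapping TAT1) and the fifth with DMSO (84.7 ± 5.84).

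Footprint levels per kilobase of counted sequence (the coding sequence less its first 20 codons) followed a like order. In IAA cells at 1 h LYP1 led with 145 ± 4.8 CPM per kilobase and in DMSO cells it was the fourth with 124 ± 4.33. AGP1 had 11.2 ± 1.17 with IAA and 11.8 ± 2.01 with DMSO, and ALP1 5.19 ± 0.324 with IAA and 3.74 ± 0.149 with DMSO. At 1 h TAT2 carried few footprints for its RNA: the log2 ratio of footprint to RNA level was -1.37 ± 0.09 (SE) with IAA and -1.22 ± 0.1 with DMSO, the lowest of the 10 in both. At 8 h the TAT2 ratio was -0.72 ± 0.06 with IAA and -0.66 ± 0.04 with DMSO, and with DMSO CAN1 was lower (-1.16 ± 0.09).

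**Figure D1:**
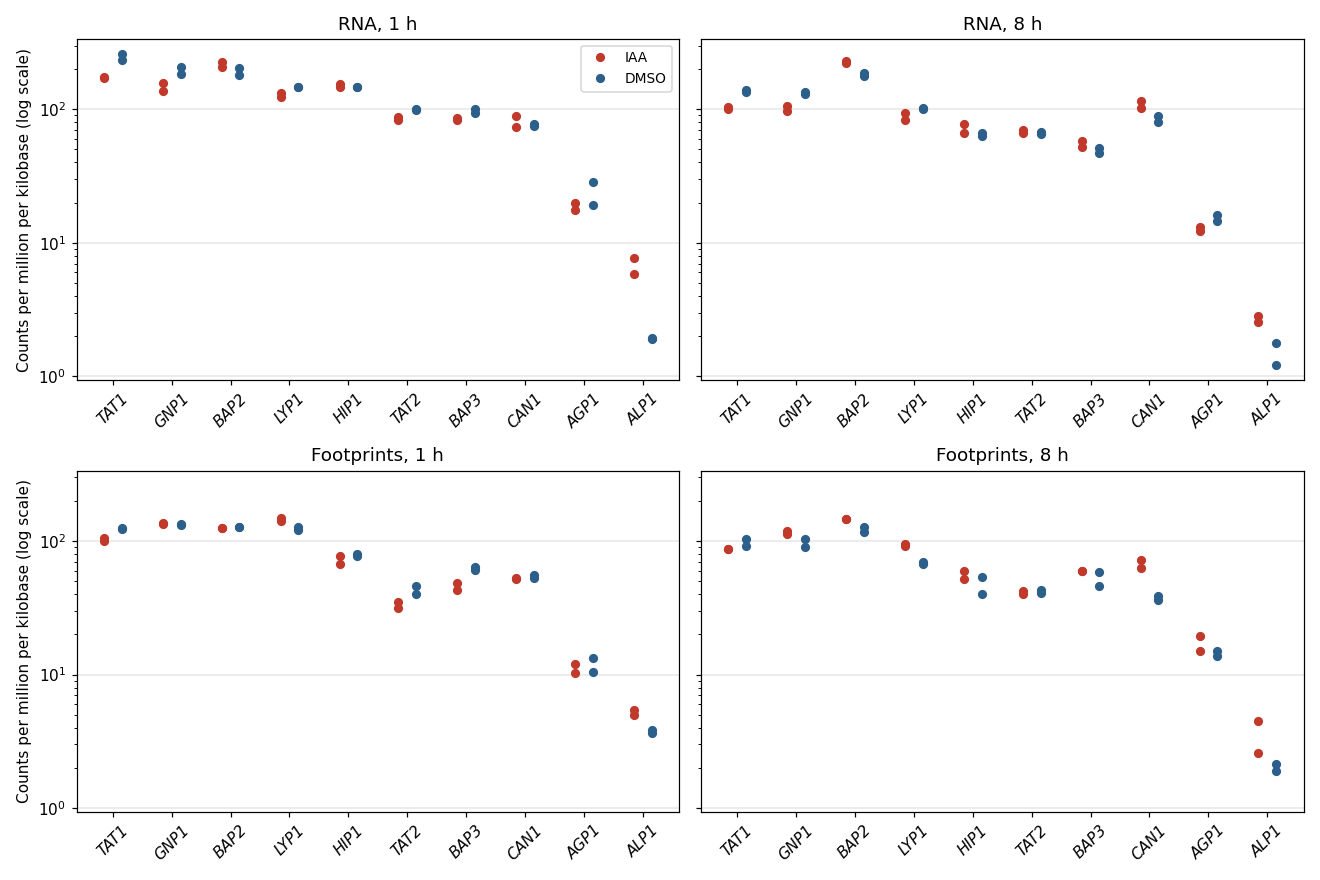
Level of each permease per length, in CPM per kilobase on a log scale, for RNA and footprints at 1 h and 8 h. Each point is a library (IAA red and left, DMSO blue and right), and genes are ordered by RNA in DMSO cells at 1 h. ALP1 and AGP1 lie below the other 8 genes in all 4 panels.

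After 1 h of IAA, 3 of the 10 permease RNAs changed: ALP1 rose, and TAT1 and GNP1 fell (adjusted p under 0.05, edgeR quasi-likelihood test, adjusted over all 6247 genes tested). Over all genes 21.9% rose and 20.9% fell, 42.8% in all. With 10 genes the share of 3 in 10 cannot be told from that background, and the difference was not tested. The median log2 fold change of the 10 was -0.19, beside 0.01 for all genes tested.

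ALP1 RNA had 10 and 13.3 CPM with IAA, against 3.33 and 3.27 CPM with DMSO. All of this rests on 98 to 742 counts per library, and both IAA libraries lie far above both DMSO libraries. The log2 fold change was 1.82 ± 0.20 (adjusted p = 0.00162), larger than for 98.6% of the genes tested, and ALP1 kept its call under all 10 alternatives. Its neighbour LYP1 did not pass, with 226 and 243 CPM with IAA against 267 and 270 CPM with DMSO (-0.20 ± 0.08, adjusted p = 0.0813). DESeq2 called LYP1 lower (adjusted p = 0.0402), and total-count scaling turned the direction (0.02). CAN1, the arginine permease to which ALP1 is a close relative, had 131 and 158 CPM with IAA against 132 and 138 CPM with DMSO (0.10 ± 0.10). Its groups overlap, and the direction turned without IAA replicate 2 (-0.05).

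TAT1 RNA, whose counts may include TBRT reads, had 323 and 320 CPM with IAA, against 479 and 435 CPM with DMSO. The IAA libraries agree closely and both lie below the DMSO pair. The log2 fold change was -0.51 ± 0.08 (adjusted p = 0.00568), and it passed under all 10 alternatives, at -0.29 with total-count scaling. Its neighbour BAP2 had 379 and 411 CPM with IAA against 331 and 371 CPM with DMSO (0.17 ± 0.09, adjusted p = 0.185), and total-count scaling took that to 0.39 and past the threshold.

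GNP1 RNA had 271 and 316 CPM with IAA, against 366 and 414 CPM with DMSO, with no overlap. The log2 fold change was -0.41 ± 0.11 (adjusted p = 0.0255). This call was lost with total-count scaling (-0.19), without DMSO replicate 2 (-0.32, adjusted p = 0.0926) and without IAA replicate 1 (-0.32, adjusted p = 0.0594). The tryptophan permease TAT2 had 148 and 157 CPM with IAA against 178 and 174 CPM with DMSO (-0.21 ± 0.07, adjusted p = 0.0545), and BAP3 had 151 and 156 CPM with IAA against 170 and 181 CPM with DMSO (-0.19 ± 0.07, adjusted p = 0.0721). TAT2 was called lower with DESeq2 (adjusted p = 0.0308) and with its size factors in edgeR (adjusted p = 0.0473), and both directions turned with total-count scaling (0.01 for TAT2 and 0.02 for BAP3). HIP1 had 267 and 278 CPM with IAA and 265 and 264 CPM with DMSO (0.04 ± 0.07), and passed with total-count scaling alone among the scalings (0.26, adjusted p = 0.0383). AGP1 had 37.9 and 33.3 CPM with IAA and 54.4 and 36.8 CPM with DMSO (-0.36 ± 0.18, adjusted p = 0.162). The value for AGP1 depended on which DMSO library was kept: it was -0.62 without DMSO replicate 2 (adjusted p = 0.00111) and -0.05 without DMSO replicate 1 (adjusted p = 0.797).

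Across the 10 RNAs at 1 h, both IAA libraries were above both DMSO libraries for 3 genes and below them for 5, where 38.6% and 36.6% of all genes did the same. Total-count scaling left 3 permeases called higher (ALP1, BAP2 and HIP1) and 1 lower (TAT1), and of all calls over the genome 81.8% were then higher, against 51.1% with TMM.

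**Figure D2:**
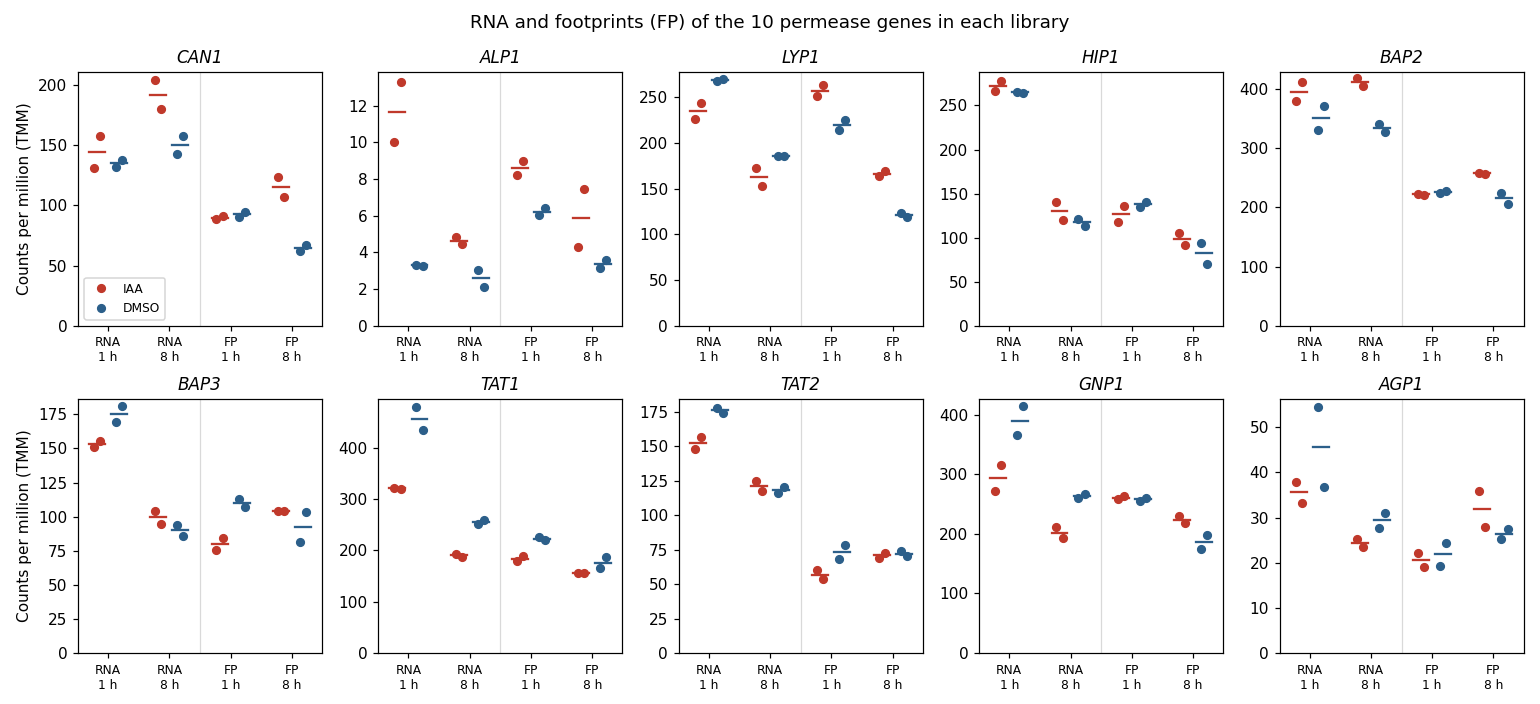
TMM-scaled CPM of each permease in every library, with RNA left and footprints (FP) right in each panel, and axes from 0. Points are libraries and bars are group means, IAA red and left of DMSO blue. ALP1 RNA at 1 h and CAN1 footprints at 8 h stand well above DMSO with IAA, and TAT1 RNA stands below DMSO at both times.

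At the same 1 h, ribosome footprints gave a different set of calls: LYP1 rose, and BAP3, TAT1 and TAT2 fell. Over all 5169 genes tested 11.1% rose and 14.9% fell, 26% in all. The median of the 10 was -0.06, beside 0.01 for all genes.

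BAP3 footprints had 75.5 and 84.6 CPM with IAA, against 113 and 107 CPM with DMSO. Both IAA libraries lie below both DMSO libraries. The log2 fold change was -0.45 ± 0.08 (adjusted p = 3.74e-05), and all 10 alternatives kept the call, at -0.27 with total-count scaling. The other branched-chain permease, BAP2, had 223 and 221 CPM with IAA and 225 and 227 CPM with DMSO (-0.03 ± 0.06), and total-count scaling turned its direction and took it past the threshold (0.16, adjusted p = 0.0495).

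TAT1 footprints had 179 and 190 CPM with IAA, against 226 and 220 CPM with DMSO (-0.27 ± 0.06, adjusted p = 0.000897). The call was lost with total-count scaling (-0.09) and in a fit of all 8 footprint libraries (adjusted p = 0.0581). TAT2 footprints had 60 and 53.8 CPM with IAA, against 68.5 and 78.6 CPM with DMSO (-0.37 ± 0.10, adjusted p = 0.00366). Its call was lost under 5 of 10 alternatives, among them leaving out DMSO replicate 2 (-0.27, adjusted p = 0.0677) or IAA replicate 2 (-0.29, adjusted p = 0.123) and DESeq2 (adjusted p = 0.0771). For TAT1 and TAT2 both IAA libraries lay below both DMSO libraries, as they did for 30.2% of all genes tested and for BAP2. The call for TAT2 was the less stable.

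LYP1 footprints had 251 and 263 CPM with IAA, against 214 and 225 CPM with DMSO. The increase was small, 0.23 ± 0.06 (adjusted p = 0.00366), and was lost with DESeq2 (adjusted p = 0.0677), in the fit of all 8 libraries (adjusted p = 0.123), without DMSO replicate 1 (0.19, adjusted p = 0.0659) and without IAA replicate 2 (0.19, adjusted p = 0.0979). ALP1, whose RNA rose, had 8.24 and 9 footprint CPM with IAA and 6.05 and 6.4 CPM with DMSO, from 25 to 45 counts per library (0.48 ± 0.25, adjusted p = 0.151). GNP1 (258 and 264 CPM with IAA, 256 and 260 CPM with DMSO), CAN1 (88.3 and 90.8 CPM with IAA, 90.1 and 94.8 CPM with DMSO), HIP1 (118 and 136 CPM with IAA, 135 and 141 CPM with DMSO) and AGP1 (22.1 and 19 CPM with IAA, 19.2 and 24.4 CPM with DMSO) overlapped between treatments. Total-count scaling gave 4 permeases higher (LYP1, BAP2, ALP1 at 0.66 with an adjusted p of 0.0336 and GNP1 at 0.20 with one of 0.0112) and 1 lower (BAP3), and 84.6% of all calls higher, against 42.8% with TMM.

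Translation efficiency (TE), the footprint change beyond the RNA change, was tested as the interaction of treatment and assay in the 8 libraries of each time. At 1 h ALP1 fell in TE, and LYP1 and GNP1 rose, where 12.6% of 6055 genes rose and 8.98% fell (21.6% in all). For ALP1 the log2 TE change was -1.36 ± 0.32 (adjusted p = 0.0124). Its RNA was 3.54-fold higher with IAA while its footprints were 1.4-fold higher, the second not past the threshold. The log2 ratio of footprint to RNA level of ALP1 was 0.97 ± 0.04 (SE) with DMSO and -0.37 ± 0.21 with IAA. ALP1 had 25 to 45 footprint counts per library, against 761 to 1594 for LYP1. In each of these genes 36 windows of 28 bases occur elsewhere in the genome. Whether shared reads add to the ALP1 footprints was not tested. The ALP1 call was lost narrowly without footprint DMSO replicate 2 (-1.31, adjusted p = 0.0504) or footprint IAA replicate 1 (-1.30, adjusted p = 0.0526), and DESeq2 gave no adjusted p for it.

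The TE change of LYP1 was 0.41 ± 0.11 (adjusted p = 0.0195) and that of GNP1 0.41 ± 0.13 (adjusted p = 0.0446), though their separate readouts differed: LYP1 had more footprints and no RNA call, and GNP1 had less RNA and footprints that overlapped between treatments. LYP1 lost the call without footprint DMSO replicate 1 (0.38, adjusted p = 0.0849) and footprint IAA replicate 2 (0.38, adjusted p = 0.083). GNP1 lost it with total-count scaling (0.39, adjusted p = 0.0984) and when any of the 4 footprint libraries, RNA DMSO replicate 2 or RNA IAA replicate 1 was left out (0.30 to 0.43, adjusted p of 0.0905 to 0.141). The other 7 had TE changes of -0.28 (BAP3) to 0.25 (AGP1), none past the threshold, and the median of the 10 was -0.17, beside 0.04 for all genes.

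The bases around the start codon are shown for the 3 permeases with a TE call, since initiation is the step at which eIF4E acts. The 12 bases before the start codon and the 3 after it are in lower case, and the start codon is in capitals.

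LYP1 (chrXIV:138538-138555, plus): atatatatatatATGggc
GNP1 (chrIV:1468439-1468456, minus): atattgcacattATGacg
ALP1 (chrXIV:137656-137673, minus): gcgattattgccATGgat

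The third base before the start codon, commonly A in yeast, was T in LYP1, A in GNP1 and G in ALP1. It was A in 4 of the 10 permeases and in 60.9% of the 5996 genes examined, and G in another 4 permeases and 19.3% of those genes. LYP1 and GNP1, higher in TE, and ALP1, lower in TE, thus each had a different base there, and its part in TE was not tested.

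After 8 h TAT1 was the single permease RNA that fell, and the remaining 9 did not pass, where 9.03% of 6100 genes rose and 8.61% fell (17.6% in all). None was called higher by edgeR, while 3 were higher at an unadjusted p under 0.05 and none with DESeq2. TAT1 RNA had 193 and 188 CPM with IAA, against 253 and 259 CPM with DMSO. The pairs do not overlap, and the log2 fold change of -0.43 ± 0.11 (adjusted p = 0.0341) was close to that at 1 h. The call was lost under 5 of 10 alternatives, among them total-count scaling (-0.38, adjusted p = 0.0784) and leaving out DMSO replicate 2 (-0.41, adjusted p = 0.0926), IAA replicate 1 (-0.45, adjusted p = 0.156) or IAA replicate 2 (-0.40, adjusted p = 0.237).

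GNP1 RNA at 8 h had 212 and 192 CPM with IAA, against 259 and 267 CPM with DMSO (-0.38 ± 0.11, adjusted p = 0.0566), and DESeq2 called it lower (adjusted p = 0.0211). CAN1 had 204 and 180 CPM with IAA, against 143 and 158 CPM with DMSO (0.35 ± 0.11, adjusted p = 0.0707). BAP2 had 418 and 404 CPM with IAA, against 342 and 327 CPM with DMSO (0.30 ± 0.12, adjusted p = 0.125). The groups of these 3 genes do not overlap, though none passed the test.

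ALP1 RNA at 8 h had 4.85 and 4.43 CPM with IAA, against 3.06 and 2.11 CPM with DMSO, from 30 to 59 counts per library (0.86 ± 0.31, adjusted p = 0.0956). LYP1 had 173 and 153 CPM with IAA and 186 and 185 CPM with DMSO, HIP1 140 and 120 CPM with IAA and 121 and 114 CPM with DMSO, and TAT2 125 and 118 CPM with IAA and 116 and 120 CPM with DMSO. BAP3 had 104 and 94.5 CPM with IAA and 93.8 and 86 CPM with DMSO, and AGP1 25.2 and 23.5 CPM with IAA and 27.8 and 31 CPM with DMSO. Over the 10 genes 4 lay above DMSO without overlap and 4 below, where 32.5% and 30.3% of all genes did so. The median log2 fold change was 0.09, beside 0.01 for all genes. Total-count scaling left no permease RNA called at 8 h, and 64.4% of all calls higher, against 51.2% with TMM.

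In footprints at 8 h CAN1 and LYP1 were called higher and none of the 10 lower. Over all 5012 genes tested 11.1% rose and 13% fell (24.1% in all), so 2 of 10 in either direction is near the background. No member was lower at an unadjusted p under 0.05 or with DESeq2.

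CAN1 footprints had 124 and 107 CPM with IAA, against 62.5 and 66.9 CPM with DMSO. Both IAA libraries lie far above both DMSO libraries, of which replicate 1 holds 99 CAN1 counts and replicate 2 617. The log2 fold change was 0.82 ± 0.15 (adjusted p = 4.53e-05), higher than for 95.2% of genes, and it passed under all 10 alternatives (0.72 to 1.09). LYP1 footprints had 163 and 169 CPM with IAA, against 124 and 119 CPM with DMSO (0.46 ± 0.13, adjusted p = 0.00858). LYP1 lost its call without DMSO replicate 2 (0.41, adjusted p = 0.091), IAA replicate 1 (0.48, adjusted p = 0.0823) or IAA replicate 2 (0.43, adjusted p = 0.114).

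The other permeases at 8 h were mostly higher in footprints without passing the test. BAP2 had 258 and 257 CPM with IAA, against 224 and 206 CPM with DMSO (0.27 ± 0.12, adjusted p = 0.116). GNP1 had 230 and 217 CPM with IAA, against 174 and 198 CPM with DMSO (0.25 ± 0.13, adjusted p = 0.159). HIP1 had 105 and 91.4 CPM with IAA and 94 and 70 CPM with DMSO (0.31 ± 0.16, adjusted p = 0.154), and it was 0.48 without DMSO replicate 1, the shallowest library (adjusted p = 0.0217), and 0.04 without DMSO replicate 2 (adjusted p = 0.916).

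BAP3 had 104 footprint CPM in both IAA libraries and 81.4 and 103 CPM with DMSO, and its lower footprints of 1 h were not seen (0.13 ± 0.15). TAT1 had 156 and 157 CPM with IAA, against 165 and 187 CPM with DMSO (-0.18 ± 0.13), and TAT2 69.3 and 73 CPM with IAA and 73.8 and 70.5 CPM with DMSO (-0.01 ± 0.16). Both of these directions turned with total-count scaling (0.08 and 0.25). AGP1 had 35.8 and 27.9 CPM with IAA and 25.2 and 27.5 CPM with DMSO, and ALP1 4.29 and 7.47 CPM with IAA and 3.16 and 3.58 CPM with DMSO, ALP1 from 5 to 53 counts per library.

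Both IAA libraries were above both DMSO libraries for 7 of the 10 permeases at 8 h and below for TAT1 alone, where 31% and 30.2% of all genes did the same. For BAP3 and AGP1 the separation was nearly a tie. The lower IAA library and the higher DMSO library had 103.8 and 103.4 CPM for BAP3, and 27.9 and 27.5 CPM for AGP1. The median of the 10 was 0.26, beside 0.01 for all genes. Their summed level was 1250 and 1211 CPM with IAA, against 1027 and 1053 CPM with DMSO. Total-count scaling gave 6 permeases higher and none lower, adding BAP2 (0.53, adjusted p = 0.000994), GNP1 (0.51, adjusted p = 0.00213), HIP1 (0.58, adjusted p = 0.00534) and BAP3 (0.40, adjusted p = 0.0413) to CAN1 and LYP1, and 87.1% of all calls higher, against 45.9% with TMM.

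TE at 8 h rose for the same genes as at 1 h, LYP1 (0.65 ± 0.17, adjusted p = 0.0308) and GNP1 (0.63 ± 0.17, adjusted p = 0.0363), where 4.41% of 5442 genes rose and 1.82% fell (6.23% in all). The basal log2 ratio of footprint to RNA level for LYP1 was 0.08 ± 0.09 with IAA and -0.56 ± 0.03 with DMSO, and for GNP1 0.19 ± 0.08 with IAA and -0.46 ± 0.1 with DMSO. Each TE call at 8 h was lost when any 1 of 6 libraries was left out: RNA DMSO replicate 2, RNA IAA replicate 2 or any footprint library, with values of 0.56 to 0.67 for LYP1 (adjusted p of 0.0564 to 0.183) and 0.55 to 0.72 for GNP1 (adjusted p of 0.0506 to 0.181).

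CAN1, with the largest footprint change at 8 h among the 10, changed by 0.46 ± 0.18 in TE without passing (adjusted p = 0.132). ALP1 had -0.10 ± 0.58, and its direction turned without RNA DMSO replicate 2 (0.17), footprint DMSO replicate 2 (0.03) or footprint IAA replicate 1 (0.22). The remaining permeases had TE changes of -0.05 (TAT2) to 0.51 (AGP1). None was called lower, also at an unadjusted p under 0.05 and with DESeq2. The median of the 10 was 0.21, beside 0.03 for all genes.

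**Figure D3:**
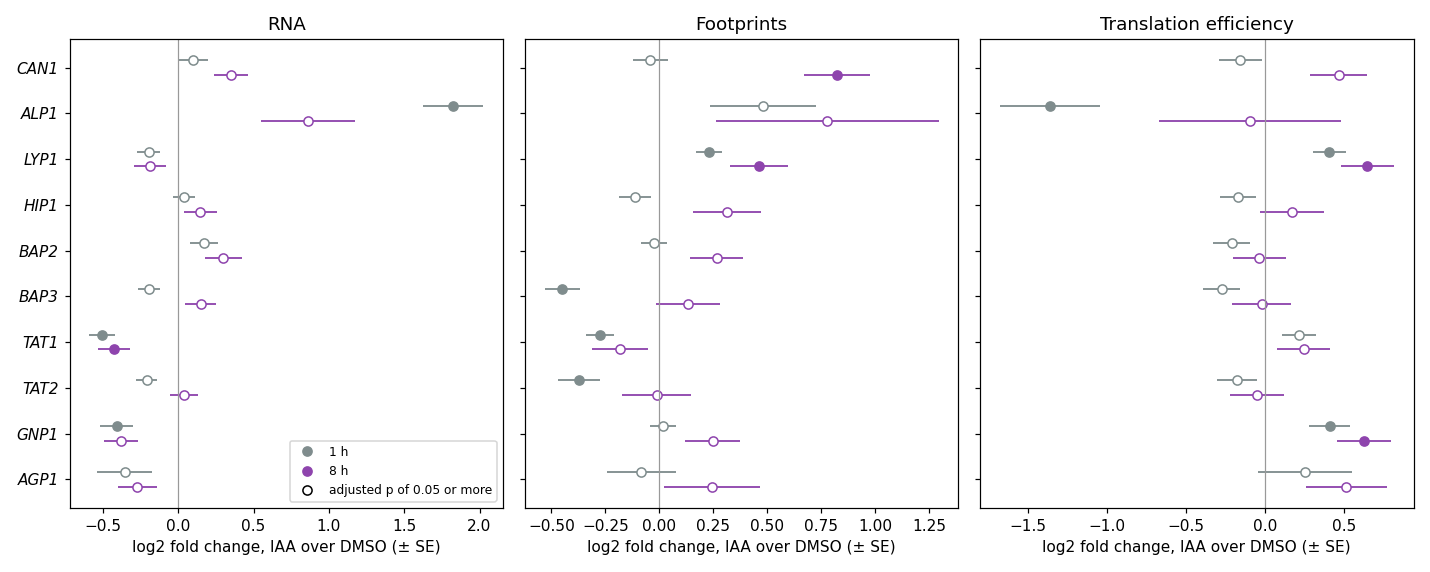
Log2 fold change of IAA over DMSO (± SE) of each permease in RNA, footprints and translation efficiency, at 1 h (grey) and 8 h (purple). Each point is an estimate from 2 libraries a group, and filled points passed an adjusted p of 0.05 over all genes. LYP1 and GNP1 lie right of 0 in translation efficiency at both times, and TAT1 left of 0 in RNA at both.

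Whether the effect of IAA differed between the times was tested as the interaction of treatment and time within each assay. The RNA and footprint libraries of the 2 times were prepared by different protocols (poly(A) selection at 1 h and rRNA depletion at 8 h for RNA), so protocol and time cannot be told apart, while the protocol was shared by both treatments of a time. For RNA no permease differed by edgeR or DESeq2, with 1 higher and 1 lower at an unadjusted p under 0.05, where 0.946% of 6451 genes were higher and 0.496% lower (1.44% in all). ALP1 had the largest difference, -0.97 ± 0.35 (adjusted p = 0.214), and BAP3 the next, 0.33 ± 0.13 (adjusted p = 0.273).

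For footprints CAN1 and BAP3 had a higher IAA effect at 8 h than at 1 h, where 8.05% of 5034 genes did and 4.89% had a lower one (12.9% in all). The difference was 0.88 ± 0.16 for CAN1 (adjusted p = 0.000787), whose own changes were 0.82 at 8 h and -0.04 at 1 h, and it passed under all 13 alternatives. It was 0.58 ± 0.16 for BAP3 (adjusted p = 0.0193), with 0.13 at 8 h and -0.45 at 1 h. BAP3 lost the call when footprints of DMSO replicate 1 (0.56, adjusted p = 0.0932), DMSO replicate 2 (0.63, adjusted p = 0.0593), IAA replicate 1 (0.52, adjusted p = 0.139) or IAA replicate 2 (0.68, adjusted p = 0.0542) at 1 h, or IAA replicate 1 at 8 h (0.56, adjusted p = 0.0533), were left out. HIP1 (0.47 ± 0.18, adjusted p = 0.0936) passed without DMSO replicate 1 at 8 h (0.62, adjusted p = 0.00826) and without IAA replicate 2 at 8 h (0.60, adjusted p = 0.0402), but was 0.18 without DMSO replicate 2 at 8 h (adjusted p = 0.561). BAP2 (0.31 ± 0.13, adjusted p = 0.117) passed without DMSO replicate 1 at 8 h (0.36, adjusted p = 0.0474). All 10 differences were positive, from 0.10 for TAT1 to 0.88 for CAN1, with a median of 0.33 beside 0.00 for all genes. None had a lower effect, also at an unadjusted p under 0.05 and with DESeq2. The footprint libraries of the 10 genes are the same 8, so the 10 signs share their samples and scaling.

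**Figure D4:**
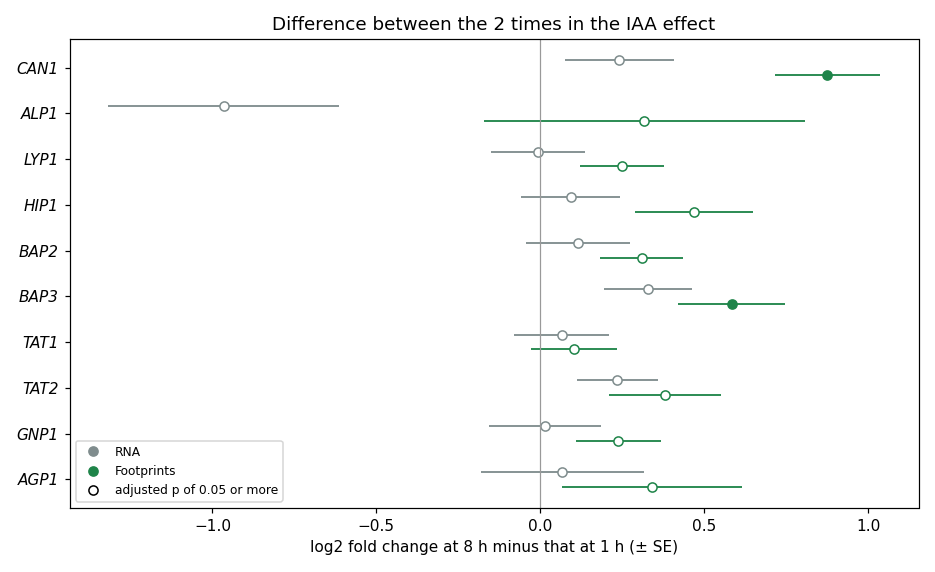
Log2 fold change of IAA over DMSO at 8 h minus that at 1 h (± SE) of each permease, for RNA (grey) and footprints (green). Filled points passed an adjusted p of 0.05 over all genes. CAN1 (0.88) and BAP3 (0.58) are filled in footprints, and all 10 footprint points lie right of 0.

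Likeness among the genes was described by Pearson r of log2 CPM over the 16 libraries, centred within each assay and time, so that treatment, replicate and scaling are what the points share. Among 4906 genes, the gene most like CAN1 was ILV2, the first enzyme of isoleucine and valine biosynthesis (r = 0.978), and the gene most like BAP2 was CPA1, a subunit of the carbamoyl phosphate synthetase of arginine biosynthesis (r = 0.946). TAT1 was most like TAL1, the transaldolase of the pentose phosphate pathway (0.972), ALP1 most like SLT2, the kinase of the cell wall integrity pathway (0.929), and GNP1 most like CYM1, a mitochondrial protease (0.947). LYP1 was most like UTP14, a factor of ribosome biogenesis (0.929), and BAP3 most like YAP1, the oxidative stress regulator (0.888). The remaining nearest genes were IWR1, a factor of RNA polymerase II import, for HIP1 (0.906), NAM2, the mitochondrial leucyl-tRNA synthetase, for TAT2 (0.875) and VPS75, a histone chaperone, for AGP1 (0.846).

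Within the 10, CAN1 and BAP2 (0.788), LYP1 and GNP1 (0.734) and ALP1 and BAP2 (0.714) were the most alike, and ALP1 and TAT1 (-0.868) and BAP2 and TAT1 (-0.775) the least. No permease had another of the 10 as its most alike gene. The 10 are a very small part of the 4906 genes searched, so this says little about likeness among them.

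The wider set of amino acid transport genes is given by counts. Over all genes, 42.8% of RNAs and 26% of footprint levels were called at 1 h, and 17.6% and 24.1% at 8 h. The effect differed between the times for 1.44% of all RNAs and 12.9% of all footprint levels. Of 10 other plasma membrane amino acid permeases, 3 RNAs rose at 1 h and 3 fell. The methionine permeases MUP1 (-1.06 ± 0.07, log2) and MUP3 (-1.25 ± 0.16) and the S-methylmethionine permease MMP1 (-1.35 ± 0.13) fell, and AGP3 rose (1.27 ± 0.14). At 8 h 2 RNAs of the list rose, led by the general permease GAP1 (1.21 ± 0.15). In footprints 1 of 7 tested rose and 3 fell at 1 h, and 6 of 7 rose at 8 h, with GAP1 at 1.52 ± 0.26 and DIP5, the dicarboxylic amino acid permease, at 0.45 ± 0.13. At 8 h the median of those 7 was 0.46, beside 0.26 for the 10 permeases and 0.01 for all genes. The effect differed between the times for 3 RNAs (MUP1, MUP3 and MMP1) and 4 footprint levels (GAP1, MUP1, SAM3 and MMP1) of this list, with the 8 h effect above the 1 h effect in each.

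Of 14 genes of the SPS sensor pathway, 2 RNAs rose and 1 fell at 1 h, and 4 footprint levels rose and 3 fell. Over all genes 42.8% of RNAs and 26% of footprint levels were called then. The footprints of STP1 (0.35 ± 0.09) and STP2 (0.45 ± 0.14), the factors the sensor releases, rose at 1 h, and those of the casein kinases YCK1 (-0.37 ± 0.09) and YCK2 (-0.39 ± 0.08) fell. At 8 h 2 RNAs (STP2 and PTR3) and 2 footprint levels (STP1 and ASI3) rose, where 9.03% and 11.1% of all genes rose.

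Of 19 genes of permease traffic, 4 RNAs rose and 5 fell at 1 h, and in footprints 4 of 18 rose and 3 fell. The shares called over all genes were 42.8% for RNA and 26% for footprints. SHR3, the chaperone that amino acid permeases need to leave the endoplasmic reticulum, had fewer footprints at both times (-0.42 ± 0.08 at 1 h and -0.62 ± 0.14 at 8 h), and at 8 h it was the single gene of the list to pass. RSP5, the ubiquitin ligase that marks permeases for endocytosis, fell in footprints at 1 h (-0.42 ± 0.07). PIL1, a main component of the eisosomes in which CAN1 resides, fell in RNA (-0.78 ± 0.08) and rose in footprints (0.37 ± 0.06) and TE (1.14 ± 0.10) at 1 h. The other footprint levels of the list that rose then were those of NCE102 (0.38 ± 0.06), LSP1 and ROD1. At 8 h 3 RNAs rose and 2 fell, where 17.6% of all RNAs were called.

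Of 5 nitrogen regulators, GZF3 and URE2 rose in RNA at 1 h, and GLN3 rose in footprints, where 21.9% and 11.1% of all genes rose. GZF3, GLN3 and URE2 rose in RNA at 8 h, of 4 tested, and GAT1 in footprints (0.78 ± 0.22), where 9.03% and 11.1% of all genes rose. Of 10 vacuolar amino acid transporters 4 RNAs rose at 1 h, led by VBA2 (1.36 ± 0.07), while in footprints 3 of 9 fell. Over all genes 21.9% of RNAs rose and 14.9% of footprint levels fell at that time. At 8 h 2 RNAs rose and 2 fell, and 2 footprint levels fell, YPQ1 and VBA1. The shares over all genes were 17.6% of RNAs called and 13% of footprint levels lower.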

How the data were processed

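RNA-seq and ribosome profiling libraries of the degron strain at 1 h and 8 h were grouped by their sample labels. The deposited values were whole-number counts of reads per gene, made by the authors and not normalised, and the footprint files also gave, as deposited, another column with the counted length of each gene in codons. Adapter trimming with cutadapt, alignment with STAR and the builds sacCer3 and R64 are listed in the submitters' processing notes. A directional kit was used after poly(A) selection (1 h) or rRNA depletion (8 h). The counter, and whether it used strand, is not given in the sources used here. Footprints of the first 20 codons were left out. Reads assigned to no gene (21.7 to 31.2% of RNA reads) stayed out of totals and tests.

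Tests used edgeR 4.0.16 in R 4.3.3 (filterByExpr, TMM scaling, quasi-likelihood test), with Benjamini-Hochberg adjustment over all genes tested and a threshold of 0.05. IAA was compared with DMSO in the 4 libraries of an assay and time. TE and the time difference were interactions in fits of 8 libraries. All 10 permeases were named in every comparison, and context lists by counts and up to 4 called genes. The members and lists were chosen with earlier results of these data known. Levels per length used reference coding lengths for RNA and the counted codons for footprints. Replicates were compared and differed by more than sampling noise (chi-square over its degrees of freedom, 1.44 to 58.7), with r of 0.974 to 0.995 over log2 counts. Alternatives were DESeq2 1.42.0, its size factors in edgeR, total-count scaling, no filter on low counts, a fit of all 8 libraries of an assay, the replicate number as a block, and leaving out each library, with the single library left in a group taken to vary as the other groups do. The tests were checked on simulated data. Sequences and positions came from the RefSeq copy of R64. Figures were drawn with matplotlib 3.10.9 in Python 3.11.15.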

Additional observations from a re-analysis of the deposited data

Results flagged for a closer look

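The footprint effect of IAA differed between the 2 times for CAN1 (0.88 ± 0.16, adjusted p = 0.000787) and BAP3 (0.58 ± 0.16, adjusted p = 0.0193), by the interaction of treatment and time over the 8 footprint libraries. CAN1 had 124 and 107 CPM with IAA against 62.5 and 66.9 CPM with DMSO at 8 h, and overlapping groups at 1 h, while BAP3 had 75.5 and 84.6 CPM with IAA against 113 and 107 CPM with DMSO at 1 h, and 104 CPM in both IAA libraries against 81.4 and 103 CPM with DMSO at 8 h. The footprint protocol differed between the times, and its part was not tested.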

How the results depend on the processing

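The calls for ALP1 and TAT1 in RNA at 1 h, BAP3 in footprints at 1 h, and CAN1 in footprints at 8 h and between the times held under every alternative run. With total-count scaling the counts of permeases called became 3 higher and 1 lower (RNA, 1 h), 4 higher and 1 lower (footprints, 1 h), 0 lower (RNA, 8 h), 6 higher (footprints, 8 h), 1 higher (TE, 1 h) and 4 higher (footprints between times). Over all genes this scaling called 2340 higher and 520 lower of 6247 (RNA, 1 h). For footprints at 1 h it called 1588 higher and 290 lower of 5169. It called 364 lower of 6100 (RNA, 8 h), 1312 higher of 5012 (footprints, 8 h) and 648 higher of 6055 (TE, 1 h). For footprints between times this scaling called 515 higher of 5034. Directions turned with it for LYP1 (0.0237), BAP3 (0.0245) and TAT2 (0.0098) in RNA at 1 h, for CAN1 (0.14), AGP1 (0.10), BAP2 (0.16) and HIP1 (0.0697) in footprints at 1 h, for TAT1 (0.0849) and TAT2 (0.25) in footprints at 8 h, for BAP2 (0.00324) and BAP3 (0.0134) in TE at 8 h, and for AGP1 (-0.0934), BAP2 (-0.0441), TAT1 (-0.0936), GNP1 (-0.15) and HIP1 (-0.0669) in RNA between the times. It shifted the median of all genes for that last comparison by -0.16. DESeq2 called 4 lower (RNA, 1 h), 0 higher (footprints, 1 h), 2 lower (RNA, 8 h) and 0 lower (TE, 1 h, no adjusted p for ALP1), and LYP1 turned between the times in RNA (0.00566, and 0.00398 with its size factors in edgeR). Over all genes DESeq2 called, in the same order, 1454 lower of 6900, 138 higher of 5870, 565 lower of 6988 and 370 lower of 6604. These totals hold every gene with a count, also those given no adjusted p, so the shares are not comparable with those of edgeR. The fit of all 8 libraries gave 0 higher and 1 lower (footprints, 1 h), 1 higher and 2 lower (RNA, 8 h) and 5 higher (footprints, 8 h), with TAT2 at 0.00229. Over all genes that fit gave 151 higher and 323 lower of 5034 (footprints, 1 h). It gave 696 higher and 797 lower of 6451 (RNA, 8 h) and 822 higher of 5034 (footprints, 8 h). The cause was not tested.

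Same-numbered IAA and DMSO libraries deviated together in RNA (r = 0.488 at 1 h, 0.462 at 8 h) and little in footprints (0.0309 and 0.043), and with 2 pairs and no label tying them the numbers were taken as names. With the replicate block, RNA at 1 h had 2 permeases higher (ALP1 and BAP2) and 6 lower (LYP1, AGP1, BAP3, TAT1, TAT2 and GNP1), where 3994 of 6247 genes were called in either direction, RNA at 8 h 0 lower, TE at 1 h 3 lower and TE at 8 h 0 higher, with ALP1 (0.0400) and BAP3 (0.00681) turned in TE at 8 h. Over all genes the block gave 484 lower of 6100 (RNA, 8 h), 813 lower of 6055 (TE, 1 h) and 242 higher of 5442 (TE, 8 h).

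With each library left out, members called ranged over 1 to 2 lower (RNA, 1 h), 0 to 1 higher (footprints, 1 h), 0 to 1 lower (RNA, 8 h), 1 to 3 higher (footprints, 8 h), 0 to 2 higher and 0 to 1 lower (TE, 1 h), 0 to 2 higher (TE, 8 h) and 1 to 4 higher (footprints between times). Values that changed sign on some omission ranged over -0.046 to 0.21 (CAN1, RNA, 1 h), -0.26 to 0.0879 (AGP1) and -0.00092 to 0.0328 (GNP1) in footprints at 1 h, -0.00673 to 0.0869 (TAT2, RNA, 8 h), -0.0737 to 0.0233 (TAT2, footprints, 8 h) and -0.0586 to 0.51 (AGP1, TE, 1 h). In TE at 8 h they were -0.57 to 0.22 (ALP1), -0.12 to 0.0108 (BAP2), -0.15 to 0.19 (BAP3) and -0.10 to 0.33 (HIP1). Between the times they were -0.11 to 0.0919 (LYP1), -0.25 to 0.32 (AGP1), -0.0136 to 0.13 (TAT1), -0.0847 to 0.11 (GNP1) and -0.0421 to 0.22 (HIP1) in RNA, and -0.15 to 0.62 (ALP1) in footprints. Depth limited ALP1 most, with 5 to 53 footprint counts in a library at 8 h.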
